A study of Mus musculus with 47 samples.

Results

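The nuclear genes of the respiratory chain described here were 85 genes, chosen from the 28032 genes of the expression table by the start of their symbol and by a mean of at least 5 CPM (gene read counts scaled to sequencing depth and, by the trimmed mean of M-values, between libraries) over all 47 libraries. The symbols began with Ndufa, Ndufb, Ndufc, Ndufs, Ndufv, Sdha, Sdhb, Sdhc, Sdhd, Uqcr, Cox4i, Cox5, Cox6, Cox7, Cox8 or Atp5. The mean level of a gene therefore chose it, and the size of the means is given only as a description. Closest above the minimum were Sdhaf3 with a mean of 6.32 CPM and Ndufaf2 with 7.19. Closest below it were Ndufaf8 with 4.68 and Ndufaf6 with 3.35, and these were not among the 85 genes. A total of 11691 genes reached the same mean and were tested together.

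The respiratory chain sits in the inner mitochondrial membrane. Complexes I and II take electrons from NADH and succinate, complex III passes them on through cytochrome c, and complex IV hands them to oxygen. Complexes I, III and IV pump protons, and ATP synthase uses the returning protons to make ATP, most of which neurons spend on ion pumping and synaptic transmission. Most subunits are encoded in the nucleus and imported, while a small core of complexes I, III, IV and of ATP synthase is encoded in mitochondrial DNA, so both genomes have to supply parts of the same machines.

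By role, the 85 genes held 7 core subunits of complex I, which carry its redox centres, 29 accessory subunits of complex I and 6 assembly factors of complex I. They held 4 subunits and 4 assembly factors of complex II, 8 subunits of complex III and 11 subunits of complex IV, with Ndufa4 counted there. Of ATP synthase they held 5 genes of the catalytic F1 part and 9 of the membrane part and stalk. Atp5s, a coupling factor, and Cox7a2l, a paralogue of a complex IV subunit that acts in the assembly of supercomplexes, stood on their own.

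Whole hippocampi of C57BL/6 mice were sequenced as poly(A) RNA, 1 mouse per library, on the Ion Proton. Young mice were 3 to 5 months old and old mice 18 to 22 months. Septic mice underwent cecal ligation and puncture and then received buprenorphine, the antibiotic imipenem and daily restraint in a cone. They were killed 1 day or 4 days after surgery, and the controls, of the same ages and sexes, were home-cage mice that had had no operation. Each of the 12 groups of age, sex and time held 4 libraries, but for old females on day 4 with 3. The comparisons with controls therefore hold surgery, drugs and restraint as well as infection, and because deaths occurred among the old mice by day 4, the old day 4 groups are survivors. In a bulk hippocampus, fewer cells of a type and less RNA per cell cannot be told apart.

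The low values lay near multiples of 0.0307 to 0.0456 CPM, which, taken as 1 read, gives 17344000 to 28145000 reads per library. The summed CPM of 10 neuronal markers lay between 7029 and 9618 in all 47 libraries, so the neurons of the labelled tissue were seen in each. Summed choroid plexus markers ranged from 86.1 to 6765 CPM and were above 1000 CPM in 14 libraries, spread over 11 of the 12 groups. Xist was at 278 CPM and the summed Y-linked genes at 0.0333 CPM in the library labelled young male day 4 replicate 3, which goes against its label, and it stayed in that group. Without it, 1 of the 85 genes was still called for young males on day 4 against controls, and 8 in place of 10 for day 4 against day 1.

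Per kilobase of transcript, the highest mean levels belonged to Atp5b, the catalytic beta subunit of ATP synthase, at 507 CPM per kilobase, Cox4i1, a regulatory subunit of complex IV, at 433, and Cox8a, a small subunit of complex IV, at 395. The lowest of the 85 was Sdhaf3, an assembly factor of complex II, at 1.46 CPM per kilobase. Where complex IV has tissue-specific isoforms, the form usual for brain was far above the other. Cox6a1 was at 352 CPM per kilobase and its heart and muscle form Cox6a2 at 3.67. Cox7a2 was at 94.6 and its heart and muscle form Cox7a1 at 1.25, and Cox4i1 was at 433 and its hypoxia-linked form Cox4i2 at 1.52. Ndufa4, a subunit of complex IV, was at 173 CPM per kilobase and its paralogue Ndufa4l2 at 1.40. Of the genes for subunit c, the rotating ring of ATP synthase, Atp5g3 was at 214 CPM per kilobase, Atp5g1 at 8.89 and Atp5g2 at 1.64. These forms were not tested where their mean was under 5 CPM.

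Libraries of the same group differed in the level of the 85 genes as a whole. The mean of their log2(CPM + 1), taken relative to each gene's mean over all libraries, ran from −0.21 to 0.24 in young male controls and from −0.24 to 0.23 in young female controls. In young females on day 1 it ran from −0.44, in replicate 3, to 0.06. Old females on day 4 were high in each library, at 0.20, 0.21 and 0.28, and no library of old female controls was above 0.14. The median within-group SD of the 85 genes was 0.24 in young male controls and 0.26 in young females on day 1, on the log2 scale. Over all genes tested it was 0.14 and 0.12 in these groups.

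**Figure D1:**
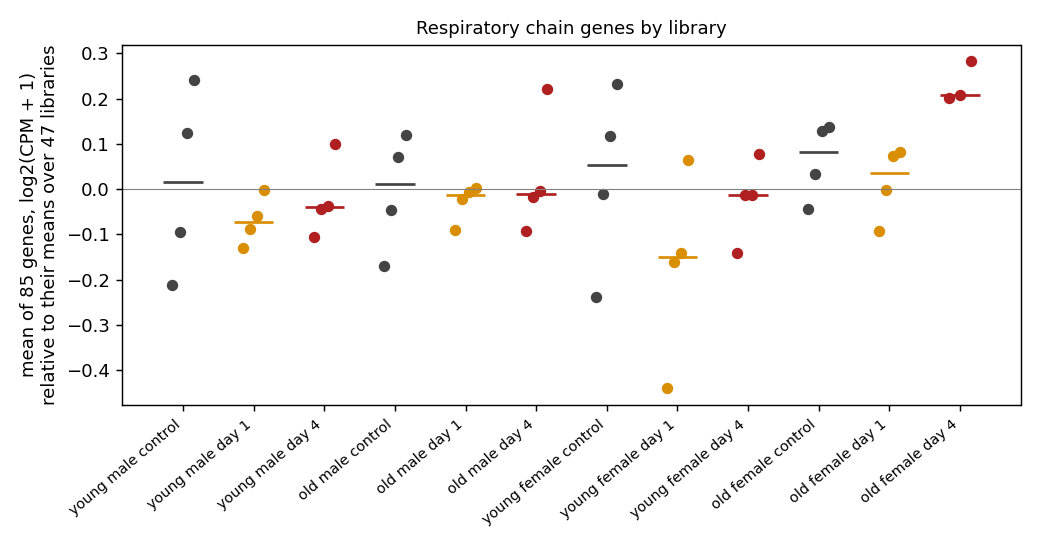
Each point is 1 library, and the vertical axis is the mean log2(CPM + 1) of the 85 genes relative to their means over the 47 libraries, with bars at the group medians. The 3 libraries of old females on day 4 lie between 0.20 and 0.28, and the lowest library, at −0.44, is young female day 1 replicate 3.

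Old males were examined first. A gene was called higher or lower where limma's moderated test on log2(CPM + 1) gave an unadjusted p below 0.01, the threshold the study used, and fold changes are on the log2(CPM + 1) scale. Adjusted p-values are by Benjamini and Hochberg over all genes tested, and the p-values measure only the spread between the libraries of a group. On day 1, 0 of the 85 genes were called in either direction in old males, where 3.79% of all genes were called higher and 4.69% lower. Their log2 fold changes lay between −0.33 and 0.25, with a median of −0.03 against −0.01 over all genes. At p below 0.05 limma gave 1 higher and 5 lower, and the unmoderated test called 0 as well. Throughout, counts at an unadjusted p below 0.05, by the unmoderated test or with libraries left out stand without the share of all genes called in the same way. They are not read as high or low. Without control replicate 4, 4 genes were called, without day 1 replicate 4 there were 3, and without control replicate 2 or day 1 replicate 2 there was 1.

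Old males on day 4 were the group with the most calls against controls, and the changes ran in both directions within each large complex. Of the 85 genes, 13 were called higher and 14 lower, while 19.7% of all genes tested were called higher and 22.0% lower. At an adjusted p below 0.05, 21 were higher and 16 lower, where the shares over all genes were 23.8% and 26.6%. The share of the 85 genes that was called was thus below or near that of all genes. The median log2 fold change of the 85 genes was 0.04, against −0.02 over all genes. Of the 27 calls 18 were kept whichever library was left out, and a test without moderation of the variances called 13. At least 10% of the exon bases or of the windows of 50 bases were shared with another gene in 5 of the 13 higher and 5 of the 14 lower genes, as in 33 of the 85.

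Among the 7 core subunits of complex I, Ndufs7 was higher and Ndufv2 and Ndufs1 were lower. Of 29 accessory subunits 3 were higher and 2 lower, and of 6 assembly factors Ndufaf3 was higher and Ndufaf4 and Ndufaf1 lower. None of the 4 complex II subunits was called, while its assembly factors Sdhaf3 and Sdhaf4 were lower. In complex III, Uqcrq was higher, and Uqcrb and Uqcrc2, a core protein, were lower. In complex IV, Cox4i1, Cox6a1, Cox6b1 and Cox8a were higher, and Cox5a and Cox7b lower. In ATP synthase, Atp5d of the F1 part and Atp5g1 and Atp5l of the membrane part were higher. Atp5c1, the gamma subunit that turns within F1, and Atp5f1 of the stalk were lower.

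**Figure D2:**
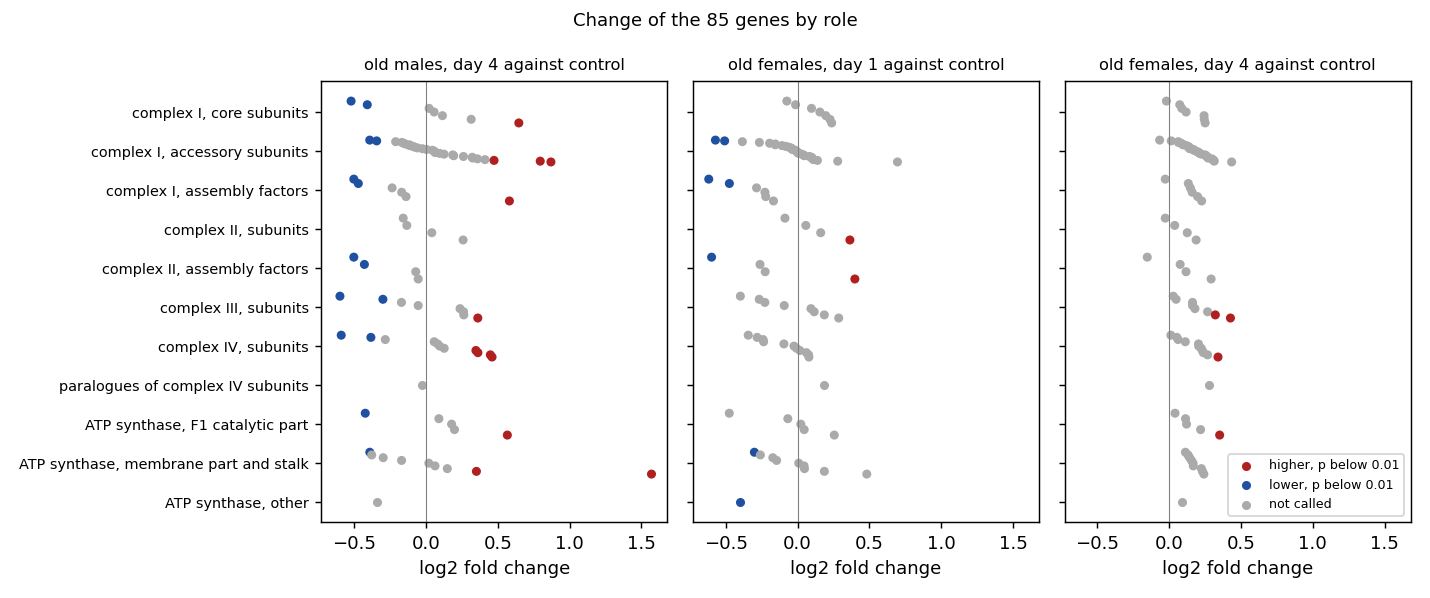
Each point is 1 of the 85 genes, placed by its role on the vertical axis and by its log2 fold change, on the log2(CPM + 1) scale, on the horizontal axis, for 3 comparisons of old mice. In old males on day 4 the 13 higher genes, in red, and the 14 lower genes, in blue, share the same complexes, whereas in old females on day 4 values lie above 0 for 80 of 85 genes.

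The largest rise without overlap in old males on day 4 was that of Ndufc2, an accessory subunit in the membrane arm of complex I, on chromosome 7 from 97400003 to 97407802 of GRCm38 in the GENCODE vM21 annotation, which gives all gene positions here. It was at 29.4, 31.4, 36.7 and 42.1 CPM in controls, 33.2, 34.6, 37.4 and 39.8 on day 1, and 58.8, 63.0, 64.9 and 69.9 on day 4. Every day 4 library was above every control and day 1 library, and the log2 fold change against controls was 0.87 ± 0.11 (adjusted p = 0.000194). Ndufb7, an accessory subunit on chromosome 8 from 83566671 to 83571626, was at 27.0, 27.5, 32.2 and 35.3 CPM in controls and 47.1, 51.5, 51.7 and 64.5 on day 4. The groups did not overlap, and the change was 0.80 ± 0.11 (adjusted p = 0.000306).

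Ndufs7, a core subunit that carries an iron-sulfur centre, lies on chromosome 10 from 80249121 to 80256794. It rose from 48.6, 53.5, 53.6 and 61.3 CPM to 76.4, 83.6, 87.2 and 94.8, by 0.65 ± 0.09 (adjusted p = 0.000283). Ndufaf3, an assembly factor on chromosome 9 from 108565537 to 108567434, rose from 17.4, 17.5, 19.9 and 21.9 CPM to 26.6, 27.2, 31.0 and 31.8, by 0.58 ± 0.10 (adjusted p = 0.000680). No day 4 library of either gene was as low as a control library. The change of Atp5l was 1.57 ± 0.32, but its libraries overlapped, from 21.1 to 81.5 CPM in controls and from 77.4 to 159 on day 4, and 84.8% of its windows of 50 bases are shared with other genes, such as Gm10221, so its counts are uncertain.

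The largest fall without overlap was that of Uqcrb, a subunit of complex III that helps to hold ubiquinone, on chromosome 13 from 66900617 to 66905378. It was at 23.7, 27.5, 31.6 and 38.4 CPM in controls and 17.0, 18.2, 21.3 and 21.3 on day 4, a log2 fold change of −0.60 ± 0.13 (adjusted p = 0.00303). Of its windows of 50 bases 43.4% are shared with other genes, such as Gm16089. Ndufv2, on chromosome 17 from 66078638 to 66101559 and with no shared window, was at 63.1, 73.4, 74.0 and 78.0 CPM in controls and 44.3, 48.3, 51.0 and 56.3 on day 4. Its groups did not overlap, and the change was −0.52 ± 0.09 (adjusted p = 0.000837).

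Ndufaf4, the assembly factor on chromosome 4 from 24898083 to 24905001, fell from 20.1, 22.0, 23.5 and 24.3 CPM to 14.2, 15.1, 16.5 and 16.5, by 0.50 on the log2 scale (SE 0.09, adjusted p = 0.000942). Sdhaf3, on chromosome 6 from 6956004 to 7042979, fell from 7.27, 7.65, 8.38 and 8.55 CPM to 4.19, 5.34, 5.41 and 6.56, also by 0.50 (SE 0.13, adjusted p = 0.00648). Neither overlapped with its controls. The complex II subunits were not called, with log2 fold changes of −0.13 for Sdha, which binds the flavin, −0.16 for Sdhb, which carries the iron-sulfur centres, and 0.26 and 0.04 for the membrane anchors Sdhc and Sdhd (limma's adjusted p = 0.214, 0.246, 0.0459 and 0.720).

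**Figure D3:**
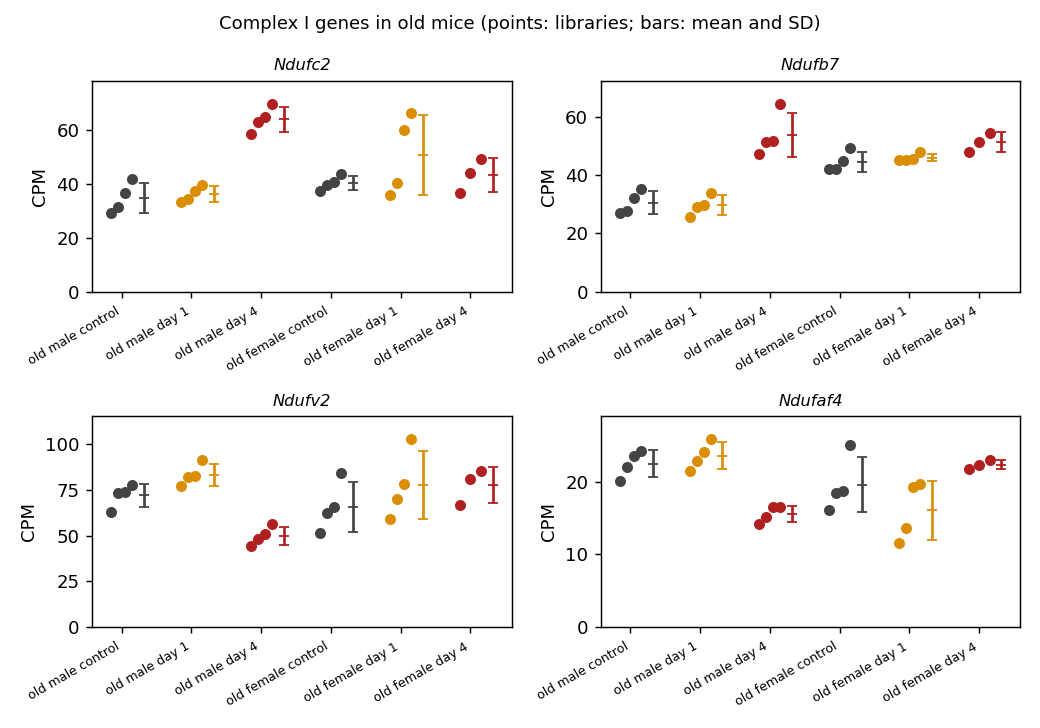
CPM of 4 complex I genes in the 6 groups of old mice, each point 1 library, with the mean and SD beside it. Ndufc2 and Ndufb7 are above all old male controls in every old male library of day 4, and Ndufv2 and Ndufaf4 are below them, while the control and day 4 libraries of old females overlap.

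To show what stands upstream of members that moved in opposite ways, the 250 bases before the RefSeq start of 2 genes that rose and 2 that fell are printed, on GRCm38.p6. They lie at chr8:83566508-83566757 on the plus strand for Ndufb7, chr7:97399753-97400002 on the plus strand for Ndufc2, chr17:66101560-66101809 on the minus strand for Ndufv2 and chr4:24897833-24898082 on the plus strand for Ndufaf4. Capitals mark matches, on either strand, to GCGCNTGCG, the core of sites of NRF1, a regulator of respiratory chain genes, or to CCGGAAG, the core of sites of the ETS family, to which GABP belongs.
Ndufb7: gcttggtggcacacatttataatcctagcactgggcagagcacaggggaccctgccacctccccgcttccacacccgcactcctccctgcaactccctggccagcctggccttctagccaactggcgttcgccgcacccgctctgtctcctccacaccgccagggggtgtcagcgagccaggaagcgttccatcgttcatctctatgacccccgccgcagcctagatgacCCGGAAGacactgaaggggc
Ndufc2: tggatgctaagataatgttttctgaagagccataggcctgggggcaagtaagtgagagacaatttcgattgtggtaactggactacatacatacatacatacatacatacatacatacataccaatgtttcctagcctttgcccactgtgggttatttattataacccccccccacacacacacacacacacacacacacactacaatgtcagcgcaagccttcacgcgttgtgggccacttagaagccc
Ndufv2: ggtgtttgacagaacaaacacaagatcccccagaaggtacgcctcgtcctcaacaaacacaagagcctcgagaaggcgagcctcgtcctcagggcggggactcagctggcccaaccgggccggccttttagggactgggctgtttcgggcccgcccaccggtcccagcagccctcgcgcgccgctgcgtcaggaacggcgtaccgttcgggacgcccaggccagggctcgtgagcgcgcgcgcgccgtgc
Ndufaf4: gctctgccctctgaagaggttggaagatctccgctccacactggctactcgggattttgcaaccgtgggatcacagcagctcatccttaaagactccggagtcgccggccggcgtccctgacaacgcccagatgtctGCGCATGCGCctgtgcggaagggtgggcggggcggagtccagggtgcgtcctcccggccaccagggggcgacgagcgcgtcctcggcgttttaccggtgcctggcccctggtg
RefSeq held such a sequence for 74 of the 85 genes, and the first listed start of each gene was used. GCGCNTGCG was present upstream of 15 of the 74, or 20.3%, against 5.40% of 27025 genes with a sequence and 12% of 8749 tested genes. CCGGAAG was present upstream of 14, or 18.9%, against 7.05% and 13.7%. AAGATGGC, the core of sites of YY1, was present upstream of 0 of the 74, against 1.59% and 1.99%. Only the 250 bases before the start were searched, so sites after the start were not counted for any motif. The letters do not overlap between the motifs in the printed stretches, and Ndufc2 and Ndufv2 held none of them. For Ndufb7 the GENCODE start lies before that of RefSeq, so 87 of its 250 bases, the match among them, are inside the GENCODE gene.

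The direction of change in old males on day 4 went with the base composition of the transcripts. The 13 higher genes had a median GC content of 58.0%, from 46.8% to 59.7%, and the 14 lower genes a median of 44.8%, from 39.5% to 49.1%. Over the 85 genes Pearson's r between GC content and log2 fold change was 0.53 and Spearman's rho 0.59, and over the 11576 other genes they were 0.78 and 0.85. These are correlations across genes that share the same 8 libraries. Of the 3046 other genes with a GC content of at least 55%, 58.8% were called higher and 0.131% lower, and of the 2410 below 45%, 0.124% and 72.0%. Of the 85 genes, 8 of 20 were called higher and 0 lower at 55% or more, and 0 of 12 were called higher and 7 lower below 45%.

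After each library was corrected for its trend on GC content, 17 of the 85 genes were called in place of 27, and 9 of them had been called before. Ndufc2 was then at 0.99 ± 0.11, Ndufb7 at 0.37 ± 0.08 and Ndufaf3 at 0.32 ± 0.08, all still called, as were Atp5g1, Atp5l, Cox6b1 and Uqcrq on the higher side and Atp5c1 and Cox5a on the lower. Ndufs7 was at 0.22, Uqcrb at −0.17 and Ndufv2 at −0.08, none of them called. Sdhaf3 and Ndufaf4 turned to 0.025 and 0.043. The correction also removes any response that follows GC content, and the cause of the trend was not tested. Here and below, counts after a correction stand without the share of all genes called after it. They are not read as high or low. Markers of other cells moved with the group as well. Of 8 tested microglial markers 6 were higher and 1 lower, and their sum was 269 to 306 CPM in old male controls and 405 to 462 on day 4. Of 9 tested choroid plexus markers 3 were higher, and their sum was 136 to 194 CPM in controls and 153 to 2987 on day 4. Their part in the result was not tested.

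**Figure D4:**
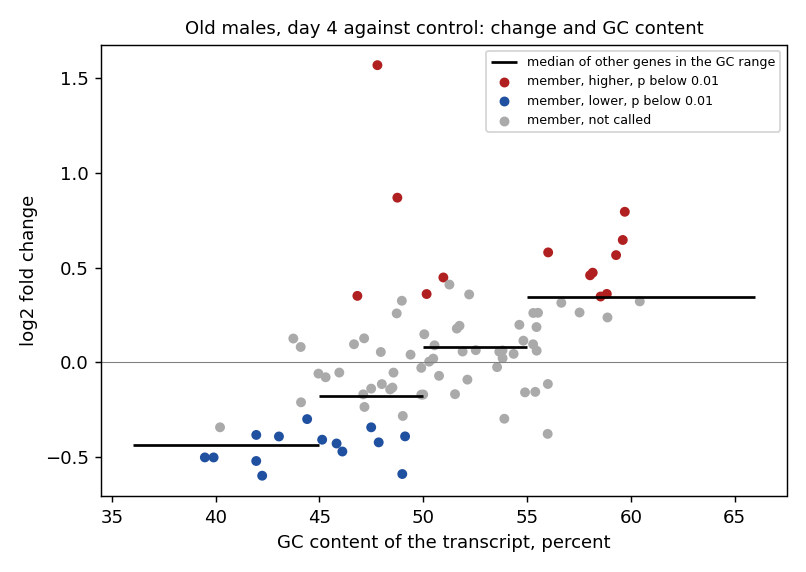
Each point is 1 of the 85 genes in old males on day 4 against controls, with the GC content of its transcript on the horizontal axis and its log2 fold change on the vertical axis. Black lines give the median of the other genes in 4 ranges of GC content, from −0.44 below 45% to 0.34 at 55% or more, and the lower genes, in blue, are all at 49.1% or less.

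From day 1 to day 4 in old males, 23 genes were called higher and 15 lower, where 23.0% of all genes were called in each direction. At an adjusted p below 0.05 they were 26 and 19, against 27.0% and 27.7% of all genes. Ndufb7, Ndufc2 and Atp5l had the largest rises without overlap, of 0.83 ± 0.11, 0.81 ± 0.08 and 1.32 ± 0.21 (adjusted p = 0.000128, 4.73e-05 and 0.000396). Uqcrb, Ndufv2 and Cox5a, a subunit of complex IV, had log2 fold changes of −0.79, −0.73 and −0.62 (adjusted p = 0.000113, 8.88e-05 and 0.00112). Of the windows of 50 bases in Cox5a 32.05% are shared with other genes, such as Gm26631. This comparison shares its day 4 libraries with the one against controls, and the other comparisons of days, ages and sexes share libraries with those against controls in the same way. After the GC correction, 25 genes were called in place of 38.

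The genes of mitochondrial DNA moved in one direction in the same libraries. All 12 of the 13 protein genes that were tested were lower in old males on day 4 than in controls, with a median log2 fold change of −0.86. The smallest fall was that of mt-Co1, by 0.54, and the largest that of mt-Atp8, by 1.42. For complex I, mt-Nd1 was at −0.69, mt-Nd2 at −1.20, mt-Nd3 at −0.85, mt-Nd4 at −0.81, mt-Nd4l at −0.86 and mt-Nd5 at −1.07. For the other complexes, mt-Cytb was at −0.82, mt-Co2 at −0.86, mt-Co3 at −0.95 and mt-Atp6 at −0.92. Their summed level was 32147 to 42767 CPM in controls, 35785 to 39320 on day 1 and 19474 to 22869 on day 4. Their GC content of 31.9% to 41.1% lies in the lowest of the 4 ranges above, and after the GC correction their median was −0.27 with 4 called lower. In young males on day 4 the median was −0.64 with 2 called lower, and −0.41 with 0 called after the correction. The difference between old and young males on day 4 had a median of −0.27 with 0 called lower by limma, and of 0.12 after the correction. In old females the median was −0.0041 on day 1 and −0.03 on day 4 with 0 called, and after the correction 0.15 with 2 called higher on day 1 and 0.04 with 0 called on day 4.

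Among the regulators of mitochondrial biogenesis, Esrra, a nuclear receptor that drives respiratory genes, was higher in old males on day 4 by 0.70 ± 0.10 (adjusted p = 0.000400), and so were Polrmt, the mitochondrial RNA polymerase, at 0.63, and the coactivators Ppargc1b and Pprc1 at 0.51 and 0.43. Ppargc1a, the best known coactivator of this program, was lower at −0.60 ± 0.17 (adjusted p = 0.0130), as was Gabpb1, a subunit of GABP, at −0.32. Nrf1 was at 0.20, Tfam, which packs mitochondrial DNA, at −0.03, Gabpa at −0.24, Tfb2m at −0.15 and Yy1 at −0.09, and none of these was called. The 11 tested regulators gave 4 higher and 2 lower, beside 19.7% and 22.0% of all genes, and these values are not corrected for GC content.

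Other lists of energy metabolism follow for old males on day 4, to be read beside the 19.7% of all genes called higher and 22.0% lower, and with no correction for the GC trend. Of 13 tested genes of the tricarboxylic acid cycle, which feeds complexes I and II, 0 were higher and 3 lower, with a median of −0.08. Of 13 tested genes of pyruvate dehydrogenase, its regulators and its pyruvate carrier, 0 were higher and 6 lower, with a median of −0.23. Dld, the enzyme both lists share, was at −0.68. Of 17 tested genes of glycolysis, 6 were higher and 0 lower, with a median of 0.20. The higher genes held Pfkl, a form of phosphofructokinase, at 0.54 and Aldoc, an aldolase of astrocytes, at 0.52. Of 15 tested genes of complex IV assembly, 6 were higher and 1 lower, with a median of 0.19. Sco2, which brings copper to complex IV, was at 0.72 and Coa5 at −0.31. Of 14 tested genes of mitochondrial carriers and import, 1 was higher and 4 lower, with a median of −0.10. Of 12 tested genes of uncoupling and antioxidant defence, 4 were higher and 1 lower, with a median of −0.09. Ucp2, an uncoupling protein that microglia also carry, was at 1.32. Pdk4, a kinase that shuts off pyruvate dehydrogenase, was not called, at −0.06.

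In old females on day 1, 2 of the 85 genes were called higher and 7 lower, where 12.7% of all genes were called higher and 14.0% lower. The shares of the 85 genes were thus below those of all genes. Short transcripts in general were called less often. Of the other genes under 1000 bases, 5.94% were called higher and 5.68% lower. Of the 44 of the 85 genes that are this short, 0 were called higher and 2 lower. At an adjusted p below 0.05, 4 of the 85 genes were higher and 7 lower, with no share of all genes at that threshold beside them. The median of the 85 genes was −0.01 against 0.01 over all genes. Of the 6 assembly factors of complex I, Ndufaf2 and Ndufaf5 were lower and all 6 had values below 0. None of the complex III or complex IV subunits or of the core subunits of complex I was called. The other lower genes were Ndufab1 and Ndufc1 of complex I, Sdhaf3, Atp5k of the membrane part of ATP synthase, and Atp5s. Glial markers were lower in the same libraries, 6 of 8 of oligodendrocytes and 5 of 8 tested of microglia. The oligodendrocyte sum was 4612 to 5826 CPM in controls and 4081 to 4419 on day 1, the microglial sum 348 to 423 and 227 to 371, and their part was not tested.

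Ndufaf2, a late assembly factor of complex I, lies on chromosome 13 from 108002715 to 108158623. It was at 7.22, 7.57, 8.01 and 8.21 CPM in controls, 4.56, 4.59, 4.68 and 4.96 on day 1, and 9.14, 9.24 and 9.30 on day 4. The 3 groups did not overlap, and the day 1 change was −0.62 ± 0.11 (adjusted p = 0.00188). Of its exon bases, 65.6% overlap the opposite-strand gene B230220B15Rik, and the sources used here do not give the strand setting of the counting, so the reads of the pair may be mixed.

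Ndufaf5, a methyltransferase that acts in the assembly of complex I and has no overlapping gene, lies on chromosome 2 from 140170649 to 140203689. It was at 11.5, 11.9, 13.4 and 14.2 CPM in controls, 8.28, 8.63, 8.84 and 9.66 on day 1, and 11.6, 12.8 and 12.9 on day 4. Day 1 lay below both other groups without overlap, with a change of −0.48 ± 0.11 against controls (adjusted p = 0.00813). Ndufab1, the mitochondrial acyl carrier protein, is a subunit of complex I on chromosome 7 from 122085403 to 122101886. It was at 14.8, 15.2, 15.4 and 15.5 CPM in controls, 9.30, 9.88, 10.4 and 12.2 on day 1 and 13.1, 13.5 and 17.2 on day 4. The change on day 1 was −0.51 ± 0.11 (adjusted p = 0.00498), and 12.3% of its windows are shared.

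Sdhaf3 was at 6.92, 7.16, 8.28 and 9.73 CPM in controls, 4.12, 4.85, 5.31 and 5.46 on day 1 and 6.38, 7.08 and 7.78 on day 4, with a change of −0.60 ± 0.14 on day 1 (adjusted p = 0.00741). Day 1 was below both other groups without overlap. Sdhaf1, another assembly factor of complex II, was higher on day 1, at 11.2, 11.4, 12.1 and 13.7 CPM against 7.82, 9.06, 9.26 and 9.60 in controls, by 0.40 ± 0.11 (adjusted p = 0.0212). Of its exon bases 69.6% overlap E130208F15Rik on the opposite strand. Sdhb was higher by 0.36 ± 0.12 with libraries that overlapped (adjusted p = 0.0324). Sdha, Sdhc and Sdhd were at 0.06, −0.09 and 0.16 and were not called. Without control replicate 2 or without day 1 replicate 2, 5 genes were called in place of 9.

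**Figure D5:**
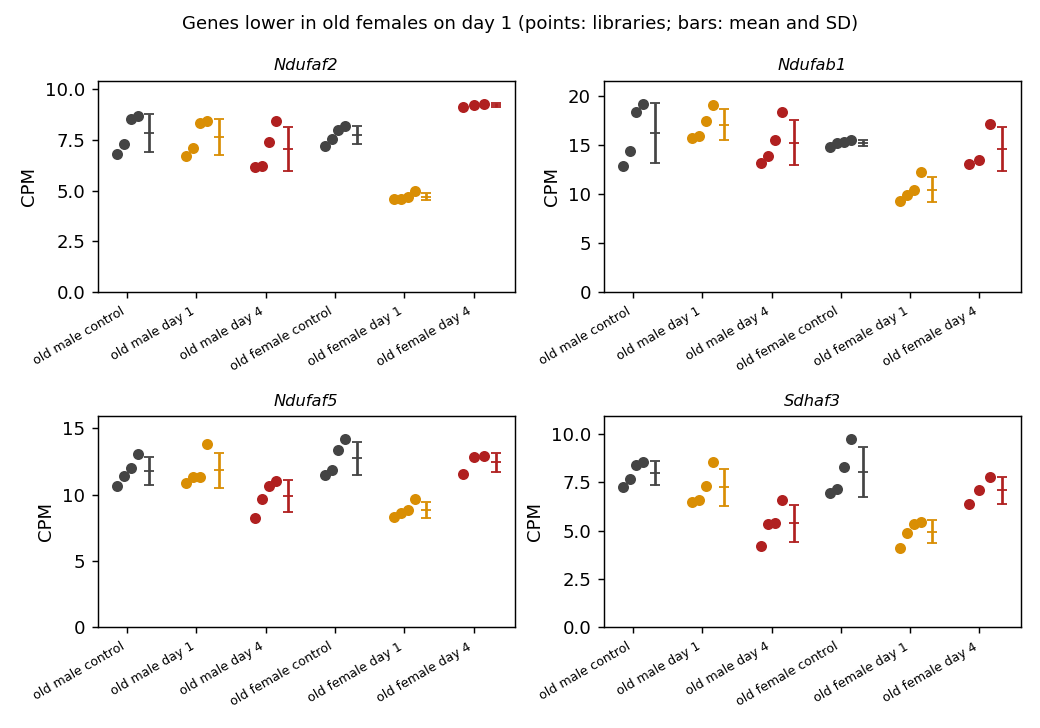
CPM of 4 genes that were lower in old females on day 1, in the 6 groups of old mice, each point 1 library, with the mean and SD beside it. In old females the day 1 libraries of all 4 genes lie below every control and day 4 library, whereas in old males the control and day 1 libraries overlap.

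On day 4 in old females, 4 genes were called higher and 0 lower, where 2.53% and 2.37% of all genes were called. The log2 fold change was above 0 for 80 of the 85 genes, against 60.1% of all genes, and the median was 0.17 against 0.04. The 4 genes were Cox8a of complex IV, the small complex III subunits Uqcr10 and Uqcr11, and Atp5d. Cox8a was at 203, 208, 217 and 222 CPM in controls and 263, 268 and 276 on day 4, with no overlap and a change of 0.34 ± 0.07 (adjusted p = 0.0918). Uqcr10 was at 58.6, 71.4, 73.5 and 74.8 CPM in controls and 80.9, 87.5 and 92.3 on day 4, with no overlap and a change of 0.32 ± 0.10 (adjusted p = 0.189). None of the 4 passed adjustment over all genes, and the unmoderated test called 2. Summed astrocyte markers were at 2751.7 to 3184.8 CPM in controls and 2340.5 to 2551.4 on day 4. The sums of oligodendrocyte and of microglial markers overlapped between these groups. The part of these cell types was not tested.

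Here too transcripts of other genes moved by length and GC content. Other genes under 1000 bases had a median of 0.16 and those of 4000 or more −0.04, and the 44 genes of the respiratory chain under 1000 bases had a median of 0.21. Pearson's r with GC content was 0.48 over the 85 genes and 0.37 over the others, a description of genes that share 7 libraries. After the correction for GC content 2 genes were called, neither of them among the 4, and after that for transcript length 0. Without control replicate 2 or replicate 3, 10 genes were called, without control replicate 1 or day 4 replicate 7, 2 genes, and without day 4 replicate 4, 1 gene.

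From day 1 to day 4 in old females, all calls were in the upward direction, 20 higher and 0 lower, where 13.5% of all genes were called higher and 9.52% lower. At an adjusted p below 0.05 they were 22 and 0, against 14.2% and 10.1% of all genes. The median was 0.26 against 0.03 over all genes, and 67 of 85 values were above 0, against 54.3% of all genes. By role the 20 were 6 of 29 accessory subunits and 3 of 6 assembly factors of complex I, 2 of 4 assembly factors of complex II, 3 of 8 subunits of complex III, 2 of 5 genes of the F1 part, 3 of 9 of the membrane part and stalk, and Atp5s. None of the core subunits of complex I, of the subunits of complex II or of the subunits of complex IV was called.

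Ndufaf2 had the largest rise, 0.84 ± 0.12 (adjusted p = 0.000838), in the libraries given above. Atp5e, the epsilon subunit of the F1 part, rose from 38.6, 40.3, 55.9 and 61.9 CPM to 73.0, 80.0 and 83.1, by 0.69 ± 0.16 (adjusted p = 0.00893). Ndufc1, an accessory subunit of complex I, rose from 9.83, 11.7, 14.6 and 16.04 CPM to 20.4, 20.9 and 22.7, also by 0.69 (SE 0.15, adjusted p = 0.00900). Neither overlapped between the days. GC content did not go with this change, with r = −0.12 over the 85 genes, and after the GC correction 19 genes were called, 16 of them among the 20. After the correction for transcript length 9 were called, 7 higher and 2 lower. Of the oligodendrocyte markers 6 of 8, and of the tested microglial markers 4 of 8, rose as well. Summed astrocyte markers went the other way, at 2866.2 to 3183.1 CPM on day 1 and 2340.5 to 2551.4 on day 4. The part of these cell types was not tested. The unmoderated test called 10. The count depended on single libraries: it was 8 without day 4 replicate 4, and 11 without day 4 replicate 2, day 4 replicate 7 or day 1 replicate 2.

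Young mice were examined next. One day after sepsis, 0 of the 85 genes were called higher and 2 lower in young males, where 3.70% of all genes tested were called higher and 4.34% lower. The median log2 fold change of the 85 genes was −0.09, against −0.0042 over all genes. The 2 lower genes were Atp5g1, at 43.8, 44.6, 47.1 and 50.6 CPM in controls and 36.9, 39.1, 39.1 and 41.1 on day 1, and Uqcrq, a small subunit of complex III, at 63.7 to 71.9 in controls and 54.5 to 60.0 on day 1. Neither overlapped between the groups. Their log2 fold changes were −0.25 ± 0.07 (SE) and −0.24 ± 0.07, with adjusted p = 0.105 and 0.101, so neither passed adjustment over all genes. Of the windows of 50 bases in Atp5g1 transcripts, 11.6% are shared with another gene. With young male day 1 replicate 3 or replicate 4 left out, 0 genes were called, and with control replicate 3 left out 5. Without any of the other 5 libraries there was 1.

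On day 4, 1 gene was called higher and 0 lower in young males, where 2.04% and 1.37% of all genes were called. It was Atp5l, a membrane subunit of ATP synthase, at 63.2, 84.9, 102 and 199 CPM on day 4 and 27.9, 41.8, 49.6 and 64.2 in controls. The groups overlapped, its reads are shared as described above, and the adjusted p was 0.256. The unmoderated test called 0, and without control replicate 3 limma called 7. From day 1 to day 4 in young males, 6 genes were called higher and 4 lower, where 8.05% and 6.30% of all genes were called.

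The largest rise with no overlap was that of Ndufa3, an accessory subunit of complex I, from 27.0, 28.2, 28.5 and 31.98 CPM on day 1 to 36.8, 39.2, 39.9 and 44.7 on day 4, a log2 fold change of 0.46 ± 0.08 (adjusted p = 0.0109). Ndufa11, another accessory subunit, and Atp5d, the delta subunit of the F1 part, followed with 0.36 ± 0.09 and 0.33 ± 0.09 (adjusted p = 0.0373 and 0.0370). Of the windows of Ndufa11 12.5% are shared with Ndufa11b. Ndufv2, a core subunit of complex I with an iron-sulfur centre, fell by 0.41 on the log2 scale, from 67.5 to 80.6 CPM on day 1 to 48.9 to 59.9 on day 4 (adjusted p = 0.0189). Sdhaf4 and Ndufaf4, assembly factors of complexes II and I, had log2 fold changes of −0.43 and −0.30 (adjusted p = 0.0499 and 0.0605). Pearson's r between GC content and this change was 0.41 over the 85 genes and 0.61 over the others. Of the other genes with a GC content of at least 55%, 25.3% were called higher. Of those below 45%, 18.2% were called lower, and the cause of the trend was not tested. In the unmoderated test 5 genes were called. Leaving out day 1 replicate 2 reduced the calls from 10 to 3. Without day 1 replicate 1 or replicate 4 there were 6, and without day 4 replicate 4 there were 5.

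In young females on day 1, 0 genes were called higher and 2 lower, where 2.42% and 2.34% of all genes were called. The log2 fold change was below 0 for 78 of the 85 genes and above 0 for 7, where 46.4% of all genes were above 0. The median was −0.19 against −0.02 over all genes, and −0.28 to −0.11 with 1 library left out. These genes share the same libraries and are not separate observations. Ndufb3, an accessory subunit on chromosome 1 from 58586384 to 58595964, was at 29.3, 29.4, 30.7 and 31.5 CPM in controls and 19.1, 21.8, 22.8 and 26.1 on day 1. Its groups did not overlap, and its log2 fold change was −0.42 ± 0.10 (adjusted p = 0.0954). Atp5j2, a membrane subunit of ATP synthase, was at −0.57 ± 0.17, but its libraries overlapped (adjusted p = 0.183). Short transcripts in general were lower in this comparison, with a median of −0.14 over the 774 other genes under 1000 bases and 0.03 over those of 4000 or more, and 44 of the 85 genes have transcripts under 1000 bases. After the correction for transcript length 1 gene was called. Of 8 oligodendrocyte markers 5 were lower in these libraries, as were 6 of 8 in young males on day 1, and their part was not tested. Without control replicate 1, 4 genes were called, and without control replicate 4, day 1 replicate 1 or day 1 replicate 3, 1 gene. The unmoderated test called 1.

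On day 4, limma called 0 of the 85 genes in young females in either direction, where 0.462% of all genes were called higher and 0.351% lower, and the median was −0.05. At p below 0.05 it gave 0 higher and 0 lower, and the unmoderated test called 0. From day 1 to day 4, 4 genes were called higher and 0 lower, where 4.51% and 2.80% of all genes were called, and the median was 0.16 against 0.04 over all genes. Ndufa12, an accessory subunit, rose from 13.04, 15.7, 16.2 and 18.4 CPM to 19.6, 21.6, 21.7 and 22.3, by 0.41 ± 0.10. Cox7a2l rose from 71.8 to 82.9 CPM on day 1 to 89.8 to 105 on day 4, by 0.31 ± 0.08. Uqcr11 had libraries that overlapped. Ndufa12 and Cox7a2l did not pass adjustment over all genes (adjusted p = 0.0697 and 0.0645). Of the windows of 50 bases, 26.2% are shared in Ndufa12 and 19.8% in Cox7a2l. After the correction for transcript length 0 genes were called, and without the libraries rich in choroid plexus markers 1 was. Without day 1 replicate 2, 12 genes were called, and without any of day 1 replicates 1 and 4 or day 4 replicates 1 and 3, 2 genes.

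Old controls were then compared with young controls. In males 0 genes were called higher and 1 lower, where 3.33% and 5.04% of all genes were called. In females limma called 0 in either direction, where 0.890% and 0.539% of all genes were called, and at p below 0.05 it gave 2 higher and 2 lower. The lower gene was Atp5g1, at 32.2, 38.9, 39.0 and 40.5 CPM in old males and 43.8, 44.6, 47.1 and 50.6 in young males, with a change of −0.30 ± 0.09 (adjusted p = 0.0876). Medians of the 85 genes were −0.02 in males and 0.06 in females. Without young male control replicate 3 the calls in males were 4, without old male control replicate 3 they were 3, without young male control replicate 4 they were 2, and without old male control replicate 2 they were 0. In females, leaving out any of young control replicates 1 to 3 gave 1.

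Whether the change after sepsis differed between ages was tested as an interaction, the change in old mice minus that in young mice. In males on day 1, limma called 0 of the 85 genes in either direction, where 0.180% and 0.334% of all genes had a higher and a lower change, and at p below 0.05 it gave 1 higher and 0 lower. On day 4, 4 had a higher and 1 a lower change in old males, where 4.76% and 3.96% of all genes did. Ndufc2 had the largest, 0.77 ± 0.18 (adjusted p = 0.0672), followed by Ndufb7 at 0.72 ± 0.22 and Atp5g1 at 0.45 ± 0.15 (adjusted p = 0.0909 and 0.105), and Sdhaf3 was at −0.50 ± 0.17 (adjusted p = 0.113). None passed adjustment over all genes. Without old male day 4 replicate 3, 1 gene was called. Without young male control replicate 2, old male control replicate 2, young male day 4 replicate 1 or 2, or old male day 4 replicate 2, 2 were called, and without young male control replicate 1 or old male control replicate 4, 3. The unmoderated test called 3. Pearson's r between GC content and this difference was 0.58 over the 85 genes and 0.69 over the others, and after the GC correction 3 genes were called, 2 of them among the 5. Without the libraries rich in choroid plexus markers 1 was called. In females limma called 0 on day 1 or day 4, where 3.70% and 5.17% of all genes were called on day 1 and 0.171% and 0.197% on day 4. Their median was 0.19 on day 1 and 0.21 on day 4. Values were above 0 for 64 and 76 of the 85 genes, against 52.9% and 52.0% of all genes. Short transcripts in general were higher here. The 774 other genes under 1000 bases had a median of 0.16 on day 1 and 0.19 on day 4. Those of 4000 or more were at −0.07 and −0.08, and 44 of the 85 genes are under 1000 bases. On day 4 Pearson's r with GC content was 0.48 over the 85 genes and 0.38 over the others. The cause of these trends was not tested. At p below 0.05, 6 of the 85 genes were higher and 2 lower on day 1, and 6 higher and 0 lower on day 4. The share of all genes at that threshold is not given here. Without young female control replicate 1, 6 genes were called on day 4.

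Whether the change differed between the sexes was tested in old mice, as the change in males minus that in females. On day 1, 4 of the 85 genes had a higher change in males and 3 a lower one, where 8.17% and 8.28% of all genes did. Ndufab1 was at 0.59 ± 0.16, Ndufaf2 at 0.59 ± 0.15 and Ndufaf5 at 0.48 ± 0.14 (adjusted p = 0.0213, 0.0150 and 0.0297), and these had been lower in old females. In old males Ndufaf5 was at 10.6, 11.4, 12.03 and 13.1 CPM in controls and 10.9, 11.3, 11.3 and 13.8 on day 1, which overlapped throughout. On the other side Ndufb4, an accessory subunit, was at −1.03 ± 0.31, Sdhaf1 at −0.58 ± 0.16 and Ndufs3, a core subunit, at −0.40 ± 0.11 (adjusted p = 0.0301, 0.0202 and 0.0251). Of the windows of 50 bases 37.0% are shared in Ndufb4 and 39.7% in Ndufs3, so their counts are uncertain. Pearson's r between GC content and this difference was −0.39 over the 85 genes and −0.29 over the others. The genes called with a higher change had a GC content of 45.3% to 47.5%, and those with a lower one 50.8% to 53.8%.

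On day 4, 3 of the 85 genes had a higher change in old males than in old females and 11 a lower one, where 4.91% and 9.98% of all genes did. Ndufc2 was at 0.77 ± 0.16, Ndufb7 at 0.60 ± 0.15 and Ndufaf3 at 0.45 ± 0.13 (adjusted p = 0.0169, 0.0264 and 0.0385). Cox5a was at −0.82 ± 0.25, Ndufv2 at −0.77 ± 0.18 and Uqcrb at −0.76 ± 0.24 (adjusted p = 0.0444, 0.0214 and 0.0476). In old females control and day 4 libraries of both Ndufv2 and Uqcrb overlapped, with Ndufv2 at 51.2, 62.3, 65.6 and 84.3 CPM in controls and 66.6, 81.0 and 85.6 on day 4, and Uqcrb at 18.3, 24.4, 32.1 and 35.4 in controls and 28.9, 30.5 and 30.7 on day 4. The GC trend of old males on day 4 stood here too, with r = 0.67 over the other genes between GC content and this difference. After the GC correction 8 genes were called in place of 14, Ndufc2 among them at 0.89. Of 8 tested microglial markers 6 had a higher change in old males here, as did 5 of 8 for age in males on day 4, and their part was not tested. Without old male control replicate 4, 8 genes were called, and without old male day 4 replicate 5 or old female day 4 replicate 7, 9.

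The complex II subunits and the brain isoforms were followed through all 8 comparisons with controls. The log2 fold change ran from −0.19 to 0.08 for Sdha, from −0.17 to 0.36 for Sdhb, from −0.26 to 0.26 for Sdhc and from −0.08 to 0.16 for Sdhd, and Sdhb in old females on day 1 was the one call among them. Cox7a2 ran from −0.30 to 0.06, Ndufa4 from −0.26 to 0.08 and Atp5g3 from −0.23 to 0.19, with no call. Cox4i1 and Cox6a1 were called in old males on day 4, at 0.46 and 0.36. Atp5g1 was called there at 0.35 and in young males on day 1 at −0.25.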

How the data were processed

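RNA of 47 hippocampi, 1 per mouse, was measured in 12 groups. The authors trimmed Ion Proton reads, aligned them to mm10 with STAR in Partek and normalized gene counts by the trimmed mean of M-values, per the study's methods. The deposited values are called CPM here from their size and steps, since the methods do not name the unit; the versions and whether strand was used in counting are not given in the sources used here. Deposited columns sum to 767930 to 937370. Of values under 20 reads, 83.1% to 87.1% lay within 0.05 of a whole read, so no count model was run.

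Values were analysed as log2(CPM + 1) for the 11691 genes with a mean of at least 5, with limma 3.58.1 (trended prior) in R 4.3.3, fitting the groups of each comparison alone. The threshold was an unadjusted p below 0.01. Interactions were contrasts over 4 groups. Transcript length and GC content came from GENCODE vM21 and were available for 11661 genes, and a lowess trend on either was taken from each library as an alternative. No replicate number is tied in the labels to a shared animal, litter or day, so replicates share only a number and no block was used. Named genes were those called without overlap, up to 4 in each direction against controls and up to 3 for day 4 against day 1. For interactions they were up to 3 called in each direction, with no condition on overlap. Old against young controls added none. The complex II subunits, the isoform pairs, mitochondrial DNA genes and regulators were named as well. Any other gene named was chosen after its values were seen. A gene that this rule names is not reported here. The 85 genes and all lists were chosen with earlier results of these data known. The test was checked on simulated data with independent noise in each gene and changes larger than those of the 85 genes. Those data held no trend on GC content or length, so the check does not cover such trends.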

Additional observations from a re-analysis of the deposited data

Results flagged for a closer look

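Of 73 groups of 4 libraries examined over named genes, 1 held a library far from the others, and chance gives about 1 in 20. It was Ndufaf4 in young males on day 4, where replicate 1 was at 17.8 CPM and the others lay between 15.5 and 15.9.

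The other 16 values are differences in the change after sepsis between groups, at an unadjusted p below 0.01 in limma's interaction test. These genes were named because they were called in these same contrasts, so their number is no result. Of all genes 4.76% had a higher and 3.96% a lower change for age in males on day 4, 8.17% and 8.28% for the sexes on day 1, and 4.91% and 9.98% for the sexes on day 4. Between old and young males on day 4 the differences in log2 change were 0.77 for Ndufc2, 0.72 for Ndufb7, 0.45 for Atp5g1 and −0.50 for Sdhaf3, and none passed adjustment over all genes. Between old males and old females on day 1 they were 0.59 for Ndufab1, 0.59 for Ndufaf2, 0.48 for Ndufaf5, −1.03 for Ndufb4, −0.58 for Sdhaf1 and −0.40 for Ndufs3. Between old males and old females on day 4 they were 0.77 for Ndufc2, 0.60 for Ndufb7, 0.45 for Ndufaf3, −0.82 for Cox5a, −0.77 for Ndufv2 and −0.76 for Uqcrb.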

How the results depend on the processing

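Counts of the 85 genes called follow, with the cause of each shift not tested unless the setting itself shows it. The share of all genes called under each setting is not given, so the counts show only how calls among the 85 moved. With only genes of a mean of at least 50 kept, 49 of the 85 were tested, and the counts were 1 for young males on day 1, 14 for old males on day 4, 1 for young females on day 1, 1 for old females on day 1, 5 and 22 for day 4 against day 1 in young and old males and 8 in old females, 0 for age in male controls, 0 for age by sepsis in males on day 4, and 0 and 6 for the sexes in old mice on days 1 and 4. With all 12 groups in 1 fit they were 0 for young males and 5 for young females on day 1, 0 for old females on day 4, 3 and 12 for day 4 against day 1 in young males and old females, 3 and 1 for age in male and female controls, 3 for age by sepsis in females on day 1 and 8 for the sexes on day 4. Scaling by the median of ratios gave 1 for young males, 1 for old males and 1 for young females on day 1, 1 for old females on day 4 and 2 for age in male controls. With the replicate number as a block, although only 20 of 48 same-numbered pairs correlated above 0.1 (range −0.59 to 0.49), the counts were 0 for young males and 5 for young females on day 1, 7 and 12 for day 4 against day 1 in young and old females, 2 for age in male controls and 4 for the sexes on day 4. Without the 14 libraries rich in choroid plexus markers, a setting chosen after seeing the data, they were 0 for young males and 0 for young females on day 1, 2 for young males and 7 for old females on day 4, 1 and 10 for day 4 against day 1 in young and old females, and 1 for age by sepsis in males on day 4. The unmoderated test gave 0 for young males, 13 for old males and 2 for old females on day 4, 1 for young females on day 1, 5 and 10 for day 4 against day 1 in young males and old females, and 3 and 1 for age by sepsis on day 4 in males and females. Correction for transcript length gave 2 for young males and 0 for old females on day 4, 2 for old males and 1 for young females on day 1, 0 and 9 for day 4 against day 1 in young and old females, 3 for age in male controls, and 1 and 1 for age by sepsis on day 1 in males and females. Correction for GC content gave 17 for old males and 2 for old females on day 4, 25 for day 4 against day 1 in old males, 3, 1 and 1 for age by sepsis in males on day 4 and in females on days 1 and 4, and 8 for the sexes on day 4. There Sdhaf3 and Ndufaf4 turned from lower to 0.025 and 0.043 in old males on day 4, the only named values to change sign. With no filter 1 was called for young females on day 1, and a pseudocount of 0.1 moved no count by over 1.5 times. Leaving out 1 library at a time gave, against controls on day 1 and day 4, 0 to 5 and 1 to 7 for young males, 0 to 4 and 22 to 30 for old males, 1 to 4 and 0 to 1 for young females, and 5 to 9 and 1 to 10 for old females. For day 4 against day 1 it gave 3 to 10 for young and 31 to 43 for old males, and 2 to 12 for young and 8 to 22 for old females. For age in controls it gave 0 to 4 in males and 0 to 1 in females, for age by sepsis 0 to 1 and 1 to 7 in males and 0 to 1 and 0 to 6 in females on days 1 and 4, and for the sexes 6 to 10 and 8 to 21. Groups of 3 or 4 and a step of 0.0307 to 0.0456 CPM per read limit the precision of the genes below 10 CPM most.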

Other observations

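Other genes of mitochondrial energy metabolism, chosen here after their values were seen, changed in old females on day 1. Pdk4, the kinase that shuts off pyruvate dehydrogenase, was at 6.15 to 8.89 CPM in controls, 16.8 to 30.1 on day 1 and 4.93 to 7.37 on day 4, a log2 fold change on day 1 of 1.51 ± 0.17 (limma's adjusted p = 6.88e-05). Ucp2, the uncoupling protein, was at 9.29 to 23.9 CPM in controls, 47.1 to 82.7 on day 1 and 13.7 to 26.2 on day 4 (2.14 ± 0.25, adjusted p = 0.000104). Timm44, a part of the import motor, was at 39.4 to 49.5 CPM in controls and 73.3 to 84.6 on day 1 (0.88 ± 0.09, adjusted p = 5.76e-05). In all 3 genes every day 1 library was above every control and day 4 library. The study lists Pdk4 and Ucp2 among the genes raised on day 1 in both ages and sexes, so their rise was not particular to old females.

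In complex IV assembly 1 gene was higher and 3 were lower of 15 tested, beside 12.7% and 14.0% of all genes. Taco1, which acts in the translation of mt-Co1, was at 6.64 to 8.92 CPM in controls, 3.37 to 5.47 on day 1 and 7.45 to 8.27 on day 4 (−0.75 ± 0.15, adjusted p = 0.00337). Coa3 was at 43.5 to 51.05 CPM, 29.5 to 34.4 and 49.6 to 56.9 in the same groups (−0.59 ± 0.09, adjusted p = 0.000718). Both were below every control and day 4 library on day 1.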
